A study of Mus musculus with 239 samples.

Results

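The 8 keratin genes that are used to tell the layers of the mammary epithelium apart, Krt5, Krt14, Krt17, Krt15, Krt7, Krt8, Krt18 and Krt19, were followed through single cells of the mouse mammary gland. They were chosen by name, and all 8 are among the 18850 genes of the deposited table. The cells came from FVB females, 3 to 4 months old, either virgin or pregnant (day 12 in the sample labels, 12.5 in their protocol). After depletion of haematopoietic and endothelial cells, the cells of both states were sorted for CD24 and CD29. The basal gate took intermediate CD24 with high CD29, and the luminal gate took high CD24 with low CD29. The basal gate gave 136 cells, 34 from virgin mice and the rest from pregnant mice. The luminal gate gave 103, with 54 from virgin and 49 from pregnant mice. Each cell was captured on a microfluidic chip and sequenced as a library of its own.

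Keratins build the intermediate filaments of epithelial cells. A filament is assembled from pairs of one acidic type I and one basic type II keratin, and a type I keratin without a type II partner is unstable, so cells usually express the types as matched sets. In the mammary duct, the outer basal or myoepithelial layer is classically marked by the type II keratin Krt5 with its type I partners Krt14 and Krt17, and the inner luminal layer by the type II keratin Krt8 with the type I keratins Krt18 and Krt19. Krt7 is a further type II keratin of simple epithelia, and Krt15 is a type I keratin of basal layers. Of the 8 genes, 5 are type I (Krt14, Krt15, Krt17, Krt18, Krt19) and 3 are type II (Krt5, Krt7, Krt8).

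Values are FPKM, in which a gene's fragments are divided by its transcript length and the cell's total, so levels of different keratins can be set side by side. A keratin is called detected in a cell at 1 FPKM or more, and levels are averaged over cells as log2(FPKM + 1). Depth, read from the steps between low values, was 8.74 M fragments in the median cell (M for mega; range 1.15 to 40.0 M), and 1 FPKM of a keratin stood for at least 1.65 fragments even in the shallowest cell. Detected genes per basal cell had medians of 1825 (virgin) and 2735 (pregnant), and per luminal cell of 3773 and 3653. Of 10 basal markers that are not keratins (Acta2, Myh11 and others), the median basal cell had 7.5 (virgin) or 9 (pregnant) and the median luminal cell 1 in each state. Of 10 luminal markers (Cldn3, Cldn4, Epcam and others), these cells had 2 or 3 and 9 or 8, so the gates matched their labels for most cells. Cells carrying at least 5 markers of the other gate numbered 5: 4 pregnant luminal cells and 1 virgin basal cell. At least 3 endothelial markers were detected in 6 virgin basal cells, 4 pregnant basal cells and 1 pregnant luminal cell. Labels do not tie cells to a mouse, chip or day, and a group therefore stands as 1 sample. SDs are over cells, intervals are exact Clopper-Pearson 95% intervals that cover the counting of cells only, and no p-value is given.

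Krt5, the type II keratin of the basal layer (chromosome 15, 101707070 to 101712898, minus strand, GRCm38), was a basal-gate gene whose level was much lower than that of its partners. Its FPKM ran from 0 through a median of 3.11 to 534 in virgin basal cells and from 0 through 69.1 to 676 in pregnant basal cells. It was detected in 19 of 34 virgin basal cells (55.9%, interval 37.9 to 72.8%) and in 92 pregnant basal cells (90.2%, 82.7 to 95.2%). In the luminal gate it was detected in 0 of 54 virgin cells, a count compatible with a share of up to 5.56%, and in 4 of 49 pregnant cells. Those 4 cells are exactly the 4 pregnant luminal cells with at least 7 of the 10 basal markers, with Acta2, the smooth muscle actin of myoepithelial cells, at 469 to 6465 FPKM. Without them Krt5 was detected in 0 of 45 pregnant luminal cells. Apart from these 4 cells, Krt5 was thus below 1 FPKM throughout the luminal gate.

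Krt14 (chromosome 11, 100203162 to 100207548, minus strand), the usual type I partner of Krt5, was high in basal cells but did not keep to the basal gate. Its FPKM ran from 0 through a median of 373 to 4969 in virgin basal cells and from 0.30 through 711 to 4889 in pregnant basal cells. In virgin luminal cells the median was 0 and the highest value 86 FPKM, with detection in 13 of 54 cells (24.1%, 13.5 to 37.6%). In pregnant luminal cells the median was 68.3 and the highest value 1484, with detection in 42 of 49 cells (85.7%, 72.8 to 94.1%). The pregnant luminal cells therefore overlapped the basal cells in Krt14, while most virgin luminal cells lay below them. Leaving out the 4 pregnant luminal cells with basal markers kept detection at 38 of 45 (84.4%). Basal markers were not all absent from those 45 cells. Myh11, a smooth muscle myosin of myoepithelial cells, the p63 gene Trp63 and the hemidesmosome collagen Col17a1 were detected in 0 of 45, Cnn1 in 1, and Mylk and Sparc in 2 each. Acta2 was detected in 6 of 45 cells, the actin-binding Tagln in 7, the oxytocin receptor Oxtr in 11 and Igfbp5, a secreted binder of insulin-like growth factors, in 41. In the 38 cells with Krt14 the summed level of the 10 markers ran from 1.51 through a median of 63 to 489 FPKM, and in the 7 without it from 2.70 through 34.2 to 14006. The part of these transcripts in the Krt14 signal was not tested.

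Krt17 (chromosome 11, 100256217 to 100261029, minus strand), a type I keratin of basal and stress-responding epithelia, was, like Krt5, detected in few luminal cells, and it reached far higher basal levels than Krt5. The median was 1027 FPKM in virgin basal cells (range 0 to 6744) and 347 in pregnant basal cells (range 0 to 3559). It was detected in 28 of 34 virgin and 90 pregnant basal cells (82.4% and 88.2%). Of the luminal cells 1 of 54 virgin and 4 of 49 pregnant cells had it. Of those 4, 3 carried the basal markers, and without such cells 1 of 45 remained, at 1.11 FPKM.

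Krt15 (chromosome 11, 100131758 to 100135928, minus strand) was patchy within the basal gate. It was detected in 5 of 34 virgin basal cells (14.7%, 4.95 to 31.1%) and in 43 pregnant basal cells (42.2%, 32.4 to 52.3%), in which the median was 0.11 and the highest value 1237 FPKM. Of the 43 pregnant cells, 39 were at 10 FPKM or more, so Krt15 was either clearly on or close to 0. In the luminal gate 2 of 54 virgin and 2 of 49 pregnant cells had it, and both of the pregnant cells carried basal markers.

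Krt8 and Krt18, the classic pair of simple epithelia, lie side by side on chromosome 15. Krt8 (type II) is at 101996698 to 102004482 on the minus strand and Krt18 (type I) at 102028180 to 102032027 on the plus strand. Their starts face away from each other and are 23.9 kb apart in the RefSeq annotation. Both genes were detected in all 54 virgin and all 49 pregnant luminal cells. Krt8 had a median of 704 FPKM in virgin luminal cells (range 6.14 to 5039) and 705 in pregnant luminal cells (range 29.6 to 3463). Krt18 had a median of 1487 (range 179 to 7326) and 1319 (range 10.7 to 7002). The medians of both genes in luminal cells were thus close in the states, and the ranges overlapped.

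In the basal gate this pair came apart. Krt8 was detected in 21 of 34 virgin basal cells (61.8%, 43.6 to 77.8%) with a median of 22.9 FPKM, and in 94 pregnant basal cells (92.2%, 85.1 to 96.6%) with a median of 154. Krt18 was detected in 13 of 34 virgin (38.2%, 22.2 to 56.4%) and 42 pregnant basal cells (41.2%, 31.5 to 51.4%), with medians of 0.15 and 0.21. Krt8, the luminal type II keratin by textbook, was therefore found in about as many pregnant basal cells as Krt5, and Krt18 in fewer. In the 42 pregnant basal cells with Krt18, the basal markers Acta2, Myh11 and Tagln were detected in 42 of 42. Of the 10 luminal markers, the claudins Cldn3, Cldn4 and Cldn7, tight-junction genes, and Prom1 were detected in 0 of 42 (a share of at most 7.14%), Ehf in 2 and Elf3 in 6. Other luminal markers were present: Lcn2, a secreted lipocalin, in 42 of 42 cells, the adhesion molecule Epcam in 37, the milk casein Csn3 in 18 and the milk protein gene Wfdc18 in 14. In the 60 cells without Krt18 these were detected in 60, 44, 15 and 22. The summed level of the 10 luminal markers had a median of 1652 FPKM (range 205 to 7306) with Krt18 and 2117 (25.2 to 15202) without, and its part in the detection of Krt18 was not tested. These cells had a median of 3027 detected genes against 2473 in the 60 without Krt18, and the part of that difference in the detection of Krt18 was not tested.

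The windows around the starts of the neighbours Krt8 and Krt18 and of the basal type II keratin Krt5 are shown because these genes differ in how tightly they keep to a gate. Each is 300 bases long, ends 50 bases after the start that RefSeq gives (build GRCm38.p6), reads 5′ to 3′ on the gene's strand, and lies at chr15:102004293-102004592 (Krt8, minus), chr15:102027966-102028265 (Krt18, plus) and chr15:101712856-101713155 (Krt5, minus). Capitals mark matches on either strand to TATAAA (the TATA box), GGGCGG (bound by SP1), TGANTCA (bound by AP-1) or GCCNNNGGC (bound by AP-2 factors).
Krt8: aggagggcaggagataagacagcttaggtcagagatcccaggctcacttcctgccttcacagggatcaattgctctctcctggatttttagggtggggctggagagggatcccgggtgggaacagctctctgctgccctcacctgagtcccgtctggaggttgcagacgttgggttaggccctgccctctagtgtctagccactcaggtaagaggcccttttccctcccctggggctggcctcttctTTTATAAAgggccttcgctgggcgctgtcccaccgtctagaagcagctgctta
Krt18: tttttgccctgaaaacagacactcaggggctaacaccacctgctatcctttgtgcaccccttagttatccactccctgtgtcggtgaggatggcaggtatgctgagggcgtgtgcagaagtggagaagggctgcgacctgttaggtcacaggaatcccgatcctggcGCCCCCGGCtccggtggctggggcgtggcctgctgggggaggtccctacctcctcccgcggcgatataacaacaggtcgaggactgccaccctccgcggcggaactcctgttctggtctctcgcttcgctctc
Krt5: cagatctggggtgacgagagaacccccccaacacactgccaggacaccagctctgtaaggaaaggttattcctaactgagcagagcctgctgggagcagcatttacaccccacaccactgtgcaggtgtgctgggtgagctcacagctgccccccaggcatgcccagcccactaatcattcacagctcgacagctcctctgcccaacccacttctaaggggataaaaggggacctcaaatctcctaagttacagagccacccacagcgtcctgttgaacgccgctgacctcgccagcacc
Krt8 holds TATAAA on both strands in overlapping copies that begin 3 bases before the start, Krt18 holds 1 GCCNNNGGC that begins 83 bases before it, and Krt5 holds none of the 4 motifs. Among 32851 RefSeq windows of 300 bases, TATAAA occurs in 13.6%, GGGCGG in 35.7%, TGANTCA in 7.81% and GCCNNNGGC in 16.6%. A match describes letters only, and these data do not measure binding. Positions hold for the RefSeq start alone, which for Krt8 is base 102004342, while its GENCODE span begins at base 102004482 on the minus strand. Whether the Krt8 match serves as a TATA box was not tested. RefSeq windows were matched for 5 of the 8 genes (Krt5, Krt14, Krt7, Krt8 and Krt18).

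Krt19 (chromosome 11, 100140810 to 100148665, minus strand), the short type I keratin of luminal cells, followed Krt18 at a lower level. Its median was 528 FPKM in virgin luminal cells (range 1.24 to 2900) and 245 in pregnant luminal cells (range 0.08 to 1213), with detection in 54 of 54 and 47 of 49. In the basal gate it was detected in 3 of 34 virgin cells and 19 pregnant cells (18.6%, 11.6 to 27.5%). The highest virgin basal value, 1259 FPKM, belonged to the single cell with 8 of 10 luminal markers, which also had 6147 FPKM of the milk casein Csn2, and the next highest was 6.45.

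Krt7 (chromosome 15, 101411043 to 101430313, plus strand) was the luminal keratin whose level depended most on the state. In virgin luminal cells it ran from 0 through a median of 77.4 to 1039 FPKM and was detected in 45 of 54 cells (83.3%, 70.7 to 92.1%). In pregnant luminal cells the median was 0, the highest value 160, and detection was 13 of 49 (26.5%, 14.9 to 41.1%). In the basal gate 1 virgin and 10 pregnant cells (2.94% and 9.80%) had it. In the virgin luminal gate, cells with and without Krt7 differed in other genes. Esr1, the oestrogen receptor of hormone-sensing luminal cells, was detected in 32 of the 45 cells with Krt7 (71.1%, 55.7 to 83.6%) and in 1 of the 9 without it (11.1%, 0.28 to 48.2%). Csn2 had a median of 285 FPKM in the cells with Krt7 and of 14178 FPKM in those without. In pregnant luminal cells Esr1 was detected in none of the 13 cells with Krt7 and none of the 36 without it.

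**Figure D1:**
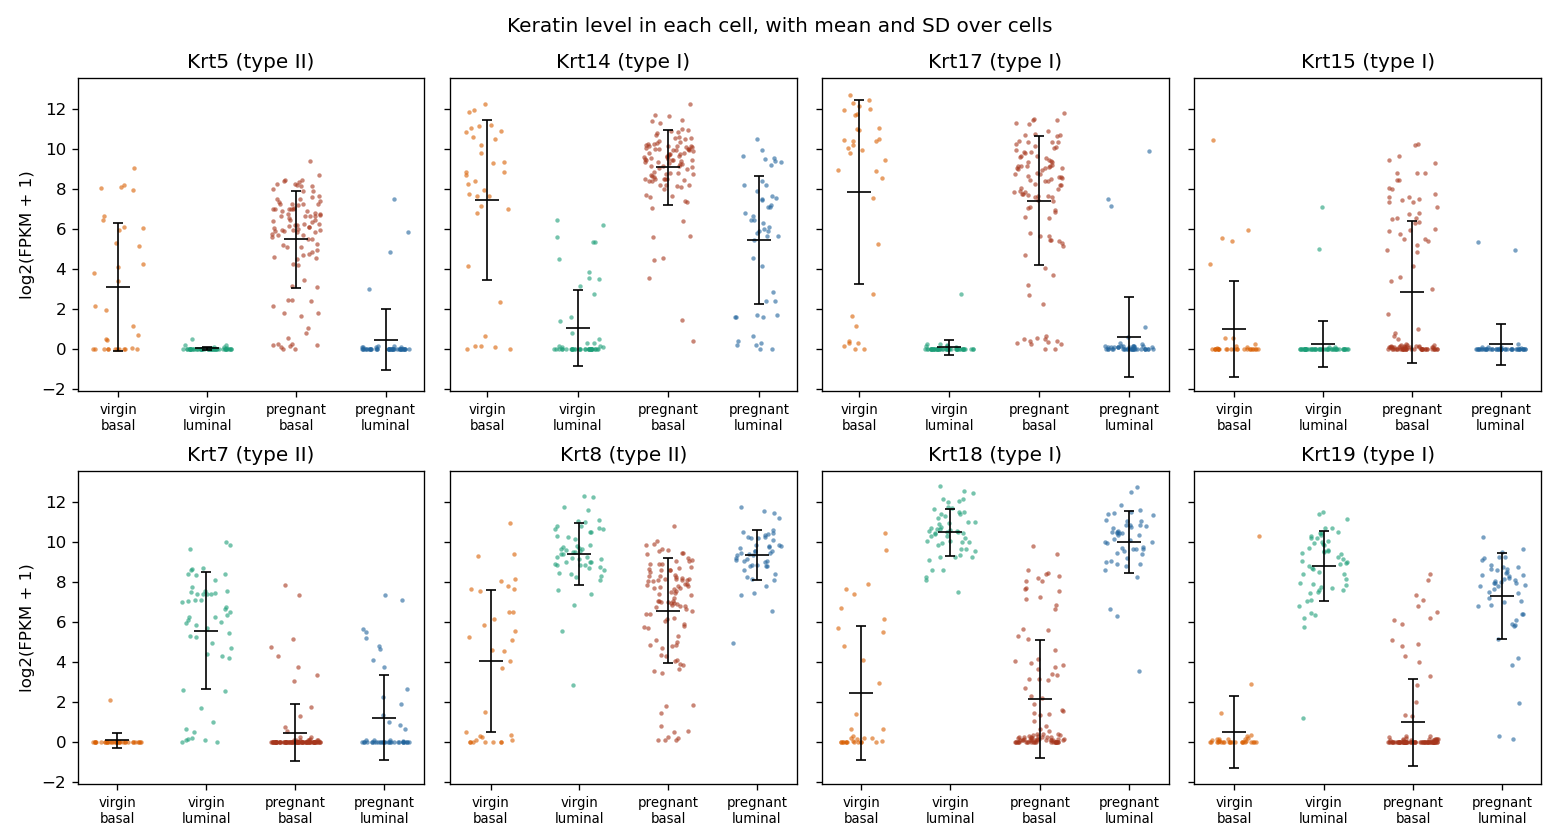
Each point is 1 cell, with log2(FPKM + 1) of the keratin named above the panel on the vertical axis and the 4 groups on the horizontal axis; bars show the mean and SD over cells. Krt5 and Krt17 sit near 0 in most cells of both luminal groups, and Krt14 is spread from 0 to the basal range in pregnant luminal cells. Krt8 is high in both luminal groups, lower in pregnant basal cells and lowest in virgin basal cells, where it was detected in 21 of 34 cells. Krt7 is high mainly in virgin luminal cells.

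Ordered by mean log2(FPKM + 1), virgin basal cells ran Krt17 (7.86 ± 4.60), Krt14 (7.46 ± 4.01), Krt8 (4.04 ± 3.58), Krt5 (3.10 ± 3.20), Krt18 (2.43 ± 3.36), Krt15 (0.98 ± 2.41), Krt19 (0.48 ± 1.82) and Krt7 (0.06 ± 0.36). Pregnant basal cells ran Krt14 (9.09 ± 1.89), Krt17 (7.43 ± 3.25), Krt8 (6.57 ± 2.64), Krt5 (5.49 ± 2.43), Krt15 (2.84 ± 3.54), Krt18 (2.15 ± 2.96), Krt19 (0.97 ± 2.18) and Krt7 (0.44 ± 1.42). Every neighbouring pair in these orders differs by less than the larger of its SDs over cells. Both basal orders place Krt8 above Krt5.

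Virgin luminal cells ran Krt18 (10.51 ± 1.18), Krt8 (9.41 ± 1.57), Krt19 (8.80 ± 1.76), Krt7 (5.57 ± 2.93), Krt14 (1.03 ± 1.91), Krt15 (0.23 ± 1.17), Krt17 (0.07 ± 0.37) and Krt5 (0.02 ± 0.08). Pregnant luminal cells ran Krt18 (10.02 ± 1.56), Krt8 (9.35 ± 1.25), Krt19 (7.31 ± 2.16), Krt14 (5.44 ± 3.22), Krt7 (1.20 ± 2.13), Krt17 (0.58 ± 1.99), Krt5 (0.44 ± 1.54) and Krt15 (0.22 ± 1.03). Krt14 and Krt7 exchange the fourth and the fifth place between the states. The steps from Krt19 to Krt7 and from Krt7 to Krt14 in virgin cells, and from Krt14 to Krt7 in pregnant cells, exceed the SDs of both neighbours, and no other step in the luminal orders does.

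The comparison of gates asks how completely the keratins separate the epithelial layers. A gene is counted as higher or lower when the mean log2(FPKM + 1) differs by at least 1, and the share of all genes past that size is given beside it for genes detected in at least 25% of the cells of either group. In virgin mice, Krt17 (difference 7.80), Krt14 (6.44) and Krt5 (3.08) were higher in the basal gate, and Krt19 (−8.32), Krt18 (−8.08), Krt7 (−5.51) and Krt8 (−5.38) were lower. That is 3 members higher and 4 lower, where 3.85% of all genes were higher and 47.6% lower. Krt15 differed by 0.75 and was the only member not detected in enough cells for that set of genes.

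In pregnant mice, Krt17 (6.85), Krt5 (5.04), Krt14 (3.65) and Krt15 (2.62) were higher in the basal gate, and Krt18 (−7.87), Krt19 (−6.34) and Krt8 (−2.78) were lower. These are 4 members higher and 3 lower, against 9.13% of all genes higher and 28.6% lower. Krt7 differed by −0.76. The median difference of the 8 members was −2.31 in virgin and 0.93 in pregnant mice, beside −0.95 and −0.56 over all genes. The Krt15 difference rested on a minority of cells: taken from medians over cells it was 0.15.

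The comparison of states asks which keratins change with pregnancy within a gate. In the luminal gate, Krt14 was higher in pregnant cells (difference 4.42), and Krt7 (−4.37) and Krt19 (−1.49) were lower. Krt18 (−0.50), Krt8 (−0.06), Krt17 (0.51), Krt5 (0.42) and Krt15 (−0.01) stayed within 1. The count was 1 higher and 2 lower of 8, of which 5 passed the detection limit, against 7.95% of all genes higher and 8.26% lower. With every cell rescaled to an equal sum, 28.2% of the genes past that size were higher in place of 49.1%, and the 3 keratin calls held. Krt14 differed by 4.14 among cells of like gene number and by 4.10 without the 4 cells with basal markers. The milk gene Csn2 was detected in every pregnant luminal cell, both with and without Krt14, with medians of 24804 and 37261 FPKM.

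In the basal gate, Krt8 (difference 2.53), Krt5 (2.38), Krt15 (1.87) and Krt14 (1.63) were higher in pregnant cells, while Krt19 (0.49), Krt7 (0.38), Krt18 (−0.28) and Krt17 (−0.44) stayed within 1. This is 4 higher and 0 lower of 8, of which 6 passed the detection limit, where 30.4% of all genes were higher and 0.981% lower. The median of the members was 1.06 beside 0.61 over all genes. Virgin basal cells had fewer detected genes, and 6 of the 34 carried endothelial markers, including all 4 cells without any of the 8 keratins. Without the endothelial-marked cells Krt14 was detected in 28 of 28 virgin and 98 of 98 pregnant basal cells, its difference was 0.34, and that of Krt17 was −1.52. The ratio of mean FPKM, pregnant to virgin, was 0.91 for Krt14 and 0.36 for Krt17, against 1.64 for Krt5 and 1.62 for Krt8. Restricted to the middle 50% of gene numbers (64 pregnant and 6 virgin cells), Krt5 differed by 3.02 and Krt8 by 0.71.

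Set side by side, the pregnancy differences of Krt14 were 1.63 in the basal and 4.42 in the luminal gate, those of Krt7 0.38 and −4.37, those of Krt8 2.53 and −0.06, and those of Krt5 2.38 and 0.42. These differences between gates were not tested, since each group is 1 sample.

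Type I and type II keratins were then summed in each cell to see how the partners balance. The median ratio of type I to type II was 14.7 (virgin) and 5.00 (pregnant) in basal cells and 2.38 and 2.23 in luminal cells. On the log2 scale the SD over cells was 3.18 and 1.90 in the basal groups, beside 1.24 and 0.87 in the luminal ones. For these 8 genes, luminal cells thus held a narrow ratio near the same value in both states, and basal cells a wider one with more type I. The sums leave out the type II keratins Krt4 and Krt6a and the type I keratin Krt23, described below, and their part in the ratio was not tested. Cells with at least 1 type I keratin detected and no type II keratin detected numbered 4 among virgin basal cells and 5 among those of pregnant mice, and the reverse in 0 cells of any group. Of the 4 virgin cells, 2 had only Krt17 of the 8 keratins, and both carried endothelial markers. The 1 pregnant basal cell with only Krt15 carried them too. The 8 keratins together made up a median of 0.79% (virgin) and 0.56% (pregnant) of the summed FPKM of a basal cell, and 1.01% and 0.62% of that of a luminal cell.

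**Figure D2:**
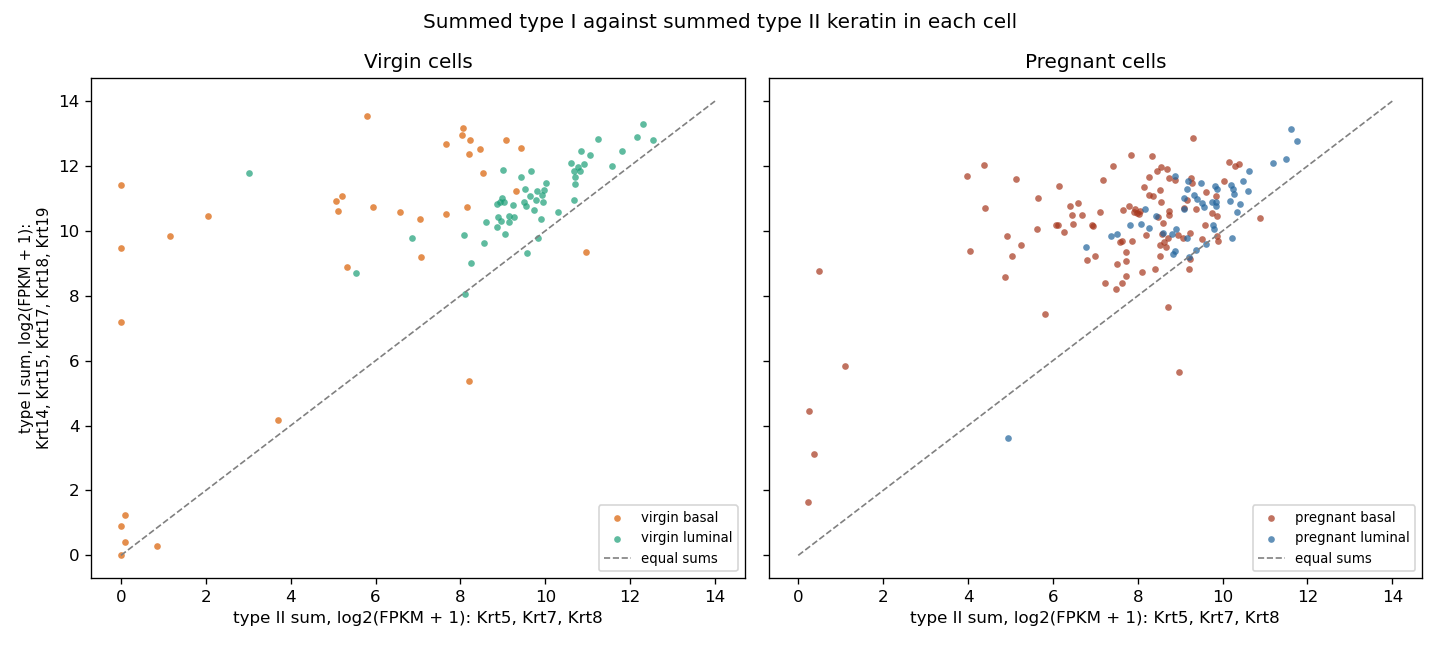
Each point is 1 cell, virgin on the left and pregnant on the right, with summed type II FPKM on the horizontal and summed type I FPKM on the vertical axis, both as log2(sum + 1); the dashed line marks equal sums. Most cells lie above the line, luminal cells close to it (median ratios 2.38 and 2.23) and basal cells farther above and more scattered (14.7 and 5.00).

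Single pairs, over cells with both genes detected, show where the balance differs. Krt18 exceeded Krt8 by a median of 1.99-fold in 54 virgin luminal cells and 1.60-fold in 49 pregnant luminal cells. In pregnant basal cells the order was reversed: over 41 cells the median ratio of Krt18 to Krt8 was 0.17, and Krt18 was the higher in 9 of them. In the 12 virgin basal cells with both genes the median ratio was 0.88. Krt19 to Krt8 had a median ratio of 0.68 in virgin and 0.35 in pregnant luminal cells. Krt14 exceeded Krt5 by a median of 12.1-fold in 19 virgin and 8.81-fold in 92 pregnant basal cells, and Krt17 exceeded Krt5 by 49.9-fold in 19 and 5.07-fold in 85.

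Krt8 was the leading type II keratin in most cells of either gate. It led in 54 of 54 virgin and 49 of 49 pregnant luminal cells, and, among basal cells with any type II keratin detected, in 16 of 26 virgin and 67 of 97 pregnant cells, where Krt5 led in 10 and 29. The leading type I keratin was Krt17 in 20 and Krt14 in 9 of 30 virgin basal cells, and Krt14 in 69 and Krt17 in 29 pregnant basal cells (the other 4 had Krt15). Among luminal cells Krt18 led in 50 of 54 virgin and 46 of 49 pregnant cells. In the basal gate the leading type I keratin was thus mostly Krt14 or Krt17, and the leading type II keratin mostly Krt8. Leading within a type does not show how well a gene separates the gates. Between gates Krt5 differed by 3.08 and Krt14 by 6.44 in virgin mice, and by 5.04 and 3.65 in pregnant mice. Reads of Krt8 can be shared with a copy: 26.9% of its 50-base windows also occur in the pseudogene Krt8-ps, and 14.4% of those of Krt14 occur elsewhere, mostly in Krt16 (11.4%). For Krt5 the share is 8.52%, for Krt17 3.99%, and for the others below 1%. Krt5, Krt7 and Krt8 each overlap an antisense gene. How the authors treated shared reads and strand is not stated in the sources used.

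Co-detection in the same cell, over the 28 pairs of members, shows how far basal and luminal keratins are mixed. At least 1 basal and 1 luminal keratin were detected together in 22 of 34 virgin basal cells (64.7%, 46.5 to 80.3%) and 96 pregnant basal cells (94.1%, 87.6 to 97.8%). The 6 virgin basal cells with endothelial markers are in the 34 but not in the 22: 4 had none of the 8 keratins and 2 had Krt17 alone. The virgin share is therefore lower than it would be without them. Luminal-gate counts were 15 of 54 virgin (27.8%, 16.5 to 41.6%) and 42 of 49 pregnant cells (85.7%, 72.8 to 94.1%). Without the 4 cells with basal markers the last share was 38 of 45. Capture sites had been inspected for doublets under a microscope, per the labels, and no doublet caller was run here. By amount the mixing was small in most luminal cells: luminal keratins made up a median of 100.0% of the summed 8 keratins in virgin and 97.4% in pregnant luminal cells, and 4.01% in virgin and 13.6% in pregnant basal cells. They exceeded 50% in 2 virgin and 4 pregnant basal cells.

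The mixing in the 2 gates used different genes. In basal cells it came mostly through Krt8: Krt5 and Krt8 were detected together in 89 pregnant (87.3%) and 14 virgin basal cells (41.2%), and in 0 of 54 virgin luminal cells. Every pregnant basal cell with Krt8 also had Krt14 (94 of 94). In luminal cells it came mostly through Krt14: Krt14 and Krt18 were detected together in 13 of 54 virgin and 42 of 49 pregnant luminal cells. The pair was found in 41.2% of pregnant and 38.2% of virgin basal cells. Since Krt18 was detected in every luminal cell, the luminal counts of this pair are those of Krt14 alone. A further 2 virgin luminal cells were mixed through Krt15 without Krt14. With at least 2 basal and 2 luminal keratins required, 51 pregnant and 13 virgin basal cells (50% and 38.2%) met the limit. Among luminal cells 1 of 54 virgin and 5 of 49 pregnant cells did, or 1 of 45 of the latter without the cells with basal markers.

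**Figure D3:**
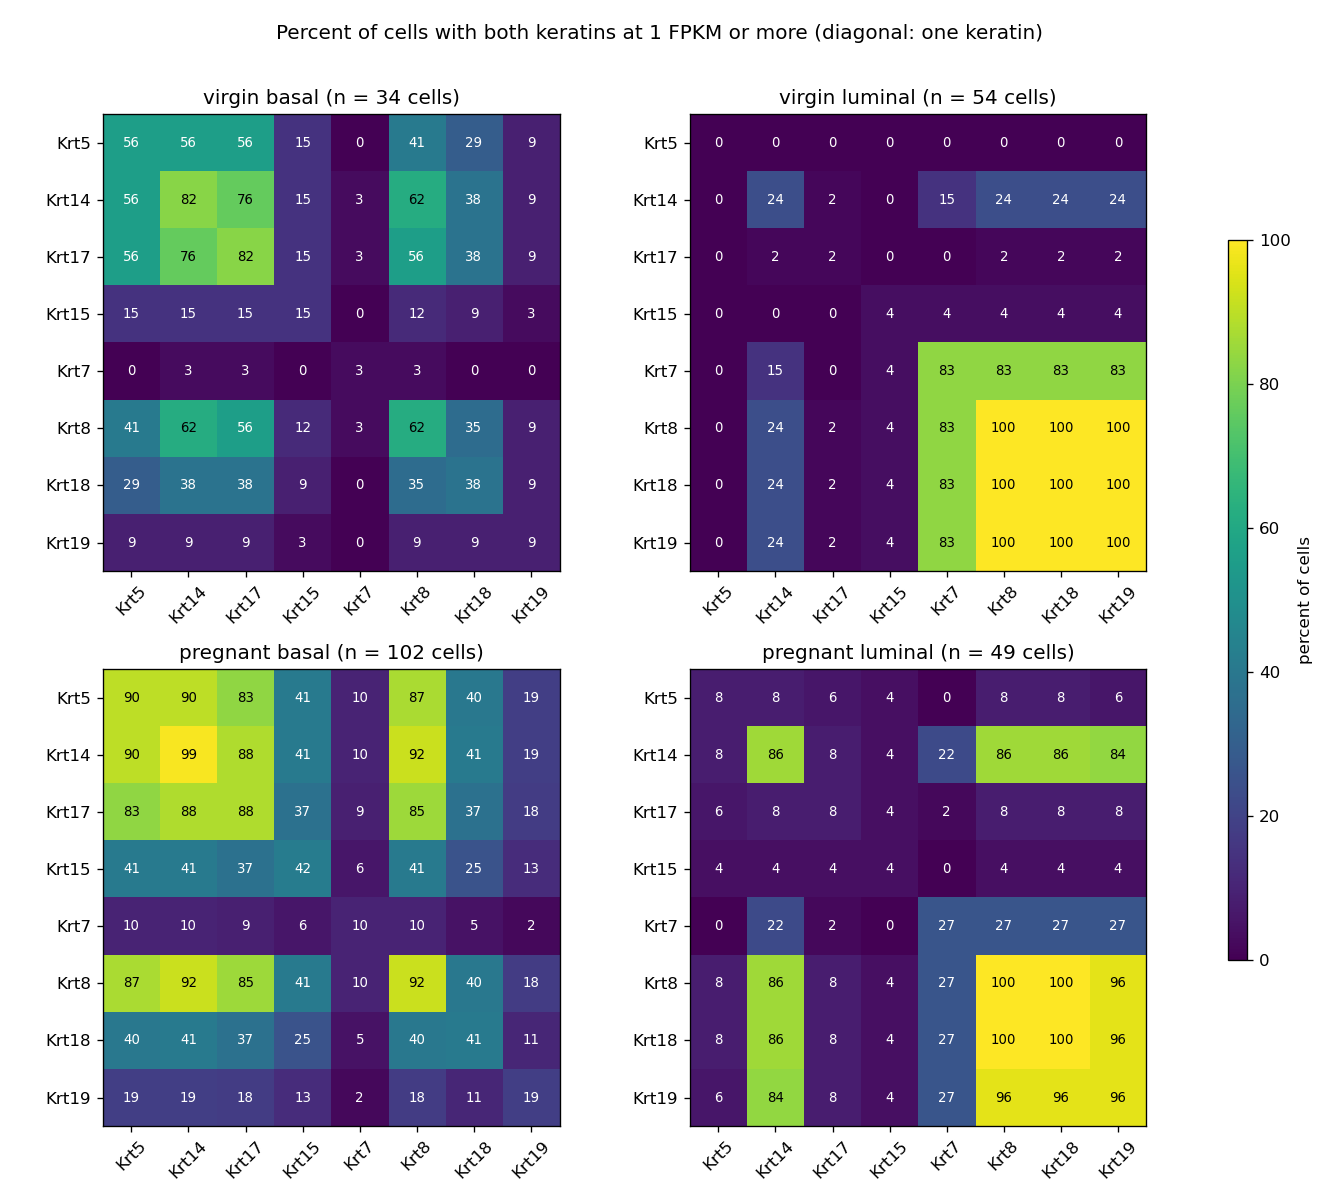
Each square gives the percent of cells of a group in which the keratins of its row and column are both at 1 FPKM or more, and the diagonal the percent with that keratin; colour runs from 0 to 100 percent. Virgin luminal cells fill mainly the Krt7, Krt8, Krt18 and Krt19 block, with Krt14 beside Krt8, Krt18 or Krt19 in 24.1% of cells and beside Krt7 in 14.8%. Pregnant luminal cells show more Krt14 and less Krt7, and basal cells add Krt8 to the Krt5, Krt14 and Krt17 block.

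Whole patterns repeat this. Among virgin luminal cells 35 of 54 had exactly Krt7, Krt8, Krt18 and Krt19, and there were 6 patterns. Among pregnant luminal cells 27 of 49 had exactly Krt14, Krt8, Krt18 and Krt19, and 10 more had Krt7 as well, among 9 patterns. Basal cells were more varied: the most frequent pattern in pregnant cells, Krt5, Krt14, Krt17 and Krt8, covered 25 cells (24.5%) among 25 patterns, and the most frequent in virgin cells, the same with Krt18, covered 5 of 34 among 16. A pregnant basal cell had a median of 5 of the 8 keratins, and a cell of each other group 4.

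Most virgin luminal cells with Krt14 also had Krt7, but Krt7 was less frequent among them than among the other virgin luminal cells. Krt7 was detected in 8 of the 13 virgin luminal cells with Krt14 (61.5%) and in 90.2% of the 41 without it. Over the 54 cells their levels had a Pearson r of −0.35 (Spearman −0.42). The 13 cells with Krt14 had a median Csn2 of 8445 FPKM against 260 in the others, and Esr1 in 3 of 13 (23.1%, 5.04 to 53.8%) against 30 of 41 (73.2%, 57.1 to 85.8%). Detected genes were alike, with medians of 3781 and 3765. In pregnant luminal cells Prlr, the prolactin receptor, was detected in 32 of 42 cells with Krt14 and in 2 of 7 without.

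**Figure D4:**
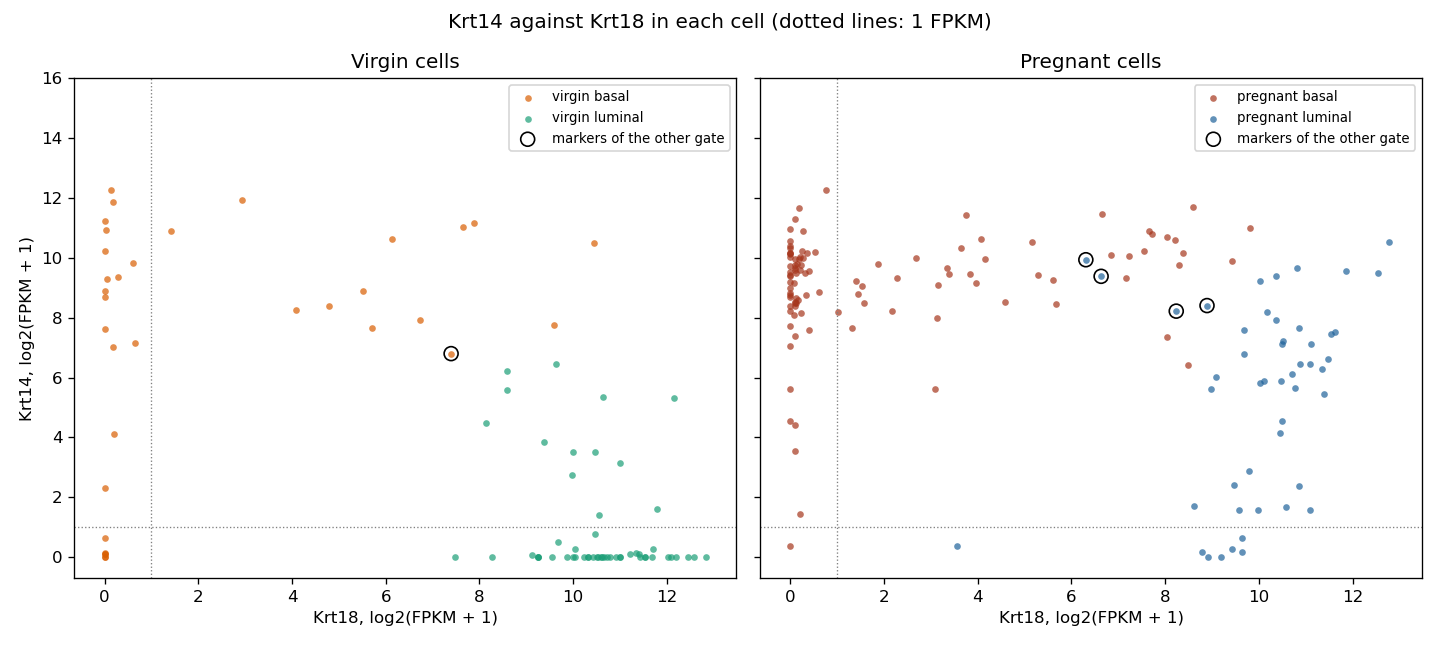
Each point is 1 cell, with log2(FPKM + 1) of Krt18 on the horizontal and of Krt14 on the vertical axis, virgin on the left and pregnant on the right; dotted lines mark 1 FPKM and circles the 5 cells with at least 5 markers of the other gate. Virgin luminal cells lie at high Krt18 and mostly near 0 for Krt14 (13 of 54 above the line), pregnant luminal cells extend into the upper right (42 of 49), and most basal cells are high in Krt14 at any Krt18.

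Within groups, levels of Krt8 and Krt18 followed each other more closely in the luminal than in the basal gate. These correlations describe cells that share library type and differ in depth. Krt8 and Krt18 had r of 0.57 in 54 virgin luminal and 0.68 in 49 pregnant luminal cells, and of 0.36 over the virgin and 0.19 over the pregnant cells of the basal gate. Krt8 and Krt19 had r of 0.74 in virgin and 0.53 in pregnant luminal cells, beside 0.13 in pregnant basal cells. For Krt7 and Krt19 the luminal values were 0.51 (virgin) and 0.09 (pregnant). Among basal cells Krt14 and Krt17, both type I, had r of 0.73 (virgin) and 0.57 (pregnant). Of pairs of a type I and a type II keratin there, Krt5 and Krt14 had 0.44 and 0.34, Krt14 and Krt8 0.58 and 0.29, and Krt5 and Krt17 0.53 and 0.27. In pregnant luminal cells Krt14 had r of 0.50 with Krt8 and 0.30 with Krt18. Without the 4 cells with basal markers these were 0.60 and 0.58, and that of Krt8 with Krt18 was 0.76.

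Of 25 further keratins looked up, 23 are in the table, and 9 of these did not reach 1 FPKM in any cell. At 10 FPKM in at least 10% of the cells of a group there were 3. Krt4, a type II keratin of stratified mucosa, was detected in 22 of 54 virgin luminal cells, up to 4541 FPKM, and listed at 0 in every cell of the other 3 groups. Krt6a, a type II keratin of stress-responding and ductal epithelia, was detected in 14 of 54 virgin luminal and 2 pregnant basal cells. Krt4 was present in 20 of the 45 virgin luminal cells with Krt7 and 2 of the 9 without, and Krt6a in 14 of 45 and 0 of 9, so all 14 cells with Krt6a also had Krt7. Krt23, a type I keratin, went with pregnancy: 46 pregnant basal (45.1%) and 5 of 49 pregnant luminal cells had it. It was detected in 0 of 34 virgin basal cells (a share of at most 8.82%) and 0 of 54 luminal ones (at most 5.56%).

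Keratin filaments are anchored at desmosomes between cells and at hemidesmosomes on the basement membrane. Of 9 hemidesmosome genes, 4 were higher and 1 lower in virgin basal than virgin luminal cells (median difference 0.40, beside −0.95 over all genes), where 3.85% of all genes were higher and 47.6% lower. In pregnant cells 7 were higher and 0 lower in the basal gate (2.02, beside −0.56), where 9.13% of all genes were higher and 28.6% lower. Of the 9 genes, 9 and 8 passed the detection limit. Examples in pregnant cells were the collagen Col17a1 (3.09), the laminin chain Lama3 (2.41) and the cytolinker Dst (2.14). Plec, which encodes plectin, the linker of keratins to the plaque, was lower by 2.82 in virgin and higher by 2.02 in pregnant basal cells. Its luminal level was lower in pregnancy (difference −2.99) and its basal level higher (1.85).

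Of 12 desmosome genes, 2 were higher and 2 lower in virgin and 2 higher and 1 lower in pregnant basal cells, and 6 and 8 of them passed the detection limit. The same shares of all genes apply, 3.85% and 47.6% in virgin and 9.13% and 28.6% in pregnant mice, and the medians of the 12 were −0.08 and 0.01 beside −0.95 and −0.56. Perp, a desmosome-associated membrane protein, differed by 1.54 and 5.76, and Dsp, desmoplakin, which binds keratins directly, by 0.04 and 3.15. Among luminal cells Dsp (−2.17) and Dsg2 (−1.16), a desmosomal cadherin, were lower in pregnant cells and none of the 12 was higher, against 8.26% of all genes lower and 7.95% higher. Among 8 genes of other intermediate filaments, Vim, the vimentin of mesenchymal and myoepithelial cells, was higher in the basal gate by 4.03 in virgin and 5.29 in pregnant mice. Synm (synemin, 2.15) and Lmna (lamin A and C, 2.50) were also higher there in pregnant mice, and none of the 8 was lower in the basal gate in either state. Only 2 (virgin) and 3 (pregnant) of the 8 passed the detection limit.

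Of 12 chaperones and regulators of keratins, 2 were higher and 3 lower in the basal gate in each state, with 11 past the detection limit. Of all genes, 3.85% were higher and 47.6% lower in virgin and 9.13% and 28.6% in pregnant mice, and the medians of the 12 were −0.32 and −0.35 beside −0.95 and −0.56. Those higher were Trp63, the p63 factor that drives Krt5 and Krt14 in stratified epithelia (1.45 in virgin, 1.90 in pregnant), and the small heat shock protein Hspb1 (2.32, 1.90). Those lower were Gata3, a luminal identity factor (−3.53, −1.63), Elf5, the alveolar factor (−1.19, −4.11), and Stat5a, which acts downstream of prolactin (−1.46, −2.41). In the luminal gate, where Krt14 was higher in pregnant cells, Trp63 differed by 0.13, and Elf5 (2.93), Tfap2c (2.19), an AP-2 factor, and Klf5 (1.04) were the 3 of 12 that were higher, against 7.95% of all genes.

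For each keratin, the genes with the most similar levels over the cells of all groups were ranked by Pearson r, which mostly reflects the 4 groups and also depth. Krt5 was nearest to Cnn1 (r 0.83), Krt14 to Acta2 (0.80), Krt17 to Tpm2 (0.81), Krt15 to Lama3 (0.46), Krt7 to Prlr (0.77), Krt8 to Tmprss13 (0.57), Krt18 to Tmprss13 (0.81) and Krt19 to Cldn7 (0.86). Krt5, Krt14 and Krt17 were thus nearest to contractile genes, and Krt8 and Krt15 had the loosest neighbours. Within virgin luminal cells Krt7 was nearest to S100a6 (0.74), Tagln2 (0.74) and Cited1 (0.69), and within pregnant luminal cells the genes nearest to Krt14 included Igfbp5 (0.56) and Rps3 (0.51).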

How the data were processed

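Single cells of FVB mouse mammary glands were sorted into basal and luminal gates, captured on Fluidigm C1 chips and sequenced from SMARTer cDNA and Nextera XT libraries, per the labels' protocols. The authors deposited 1 table with FPKM values of 18850 genes. No header names the unit, which was taken from the range of the values and from Cufflinks. The submitters' processing notes list Trimmomatic 0.35, TopHat2 2.0.13, Cufflinks 2.2.1 and build mm10, GRCm38. How reads that match several genes and strand were handled, and which annotation was used, is not stated in these sources.

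Differences of mean log2(FPKM + 1), pseudocount 1, shares at 1 FPKM, per-cell ratios and co-detection were computed with numpy 2.4.6, pandas 2.3.3 and scipy 1.17.1, and the difference step was tested on simulated data. Every sample is 1 cell with no mouse, chip or day named, so each group was 1 sample and no test was made. Depth was read from FPKM steps and transcript lengths. Intervals and limits of 0 (3 cells of the group) cover counting only, and PCR copies cannot be told from molecules. Gene positions are from GENCODE on GRCm38. The members and gene lists were chosen with earlier results of these data known. Genes named were the 8 members, other keratins at 10 FPKM in 10% of a group's cells, up to 4 genes of each list per comparison with the largest difference, and the 3 nearest genes by Pearson r. Some genes that this rule gives are not reported here. Genes detected beside a keratin (Esr1, Csn2, Prlr, Acta2, Myh11, Tagln and the claudins) were chosen after values were seen. Alternatives were pseudocounts 0.1 and 10, rescaling with and without 10 milk genes, detection at 0.1 and 10 FPKM, cells with at least 2000 genes or of like gene number, no endothelial-marked cells, medians over cells, no filter on low values, and, added after seeing the data, no cells with markers of the other gate.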

Additional observations from a re-analysis of the deposited data

How the results depend on the processing

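Of the 21 keratin differences of at least 1, none changed sign under any of the 9 alternatives computed for differences, and the 2 pseudocounts, both rescalings, the 2000-gene minimum and the removal of cells with markers of the other gate ended none of them. Cells of like gene number ended 2 (Krt14 and Krt8, pregnant against virgin basal), medians over cells 3 (Krt15 between pregnant gates; Krt14 and Krt15, pregnant against virgin basal) and removal of endothelial-marked cells 1 (Krt14, pregnant against virgin basal); the cause was not tested. In pregnant against virgin basal cells, members higher numbered 2 among cells of like gene number and 2 from medians, in place of 4. Members lower there numbered 2 with at least 2000 genes, 2 with like gene number, 1 without endothelial-marked cells and 1 from medians, in place of 0. The calls over all genes shifted too. Of all genes past that size in this comparison, 96.9% were higher in the main setting. That share was 76.8% with at least 2000 genes and 68.9% with like gene number. It was 94.9% without endothelial-marked cells and 96.3% from medians. Krt14 with Krt18 was found in 58.8% of virgin basal, 60.8% of pregnant basal and 95.9% of pregnant luminal cells at 0.1 FPKM, in 26.5% of pregnant basal and 69.4% of pregnant luminal cells at 10 FPKM, and in 58.3% of the 12 virgin basal cells with at least 2000 genes. Krt5 with Krt8 was found in 94.1% of pregnant basal cells at 0.1 FPKM and 72.5% at 10 FPKM, in 66.7% of those 12 virgin basal cells, and in 0% of pregnant luminal cells without the 4 that carried basal markers. Rescaling to equal sums moved the median of all genes from −0.56 to −0.35 between pregnant gates and from −0.02 to −0.23 between luminal states. Depth limits what a 0 says of a low gene: 12 of 34 virgin basal cells had at least 2000 genes, beside 53 of 54 virgin luminal cells. No paired analysis was possible because the cells carry numbers that pair no samples across groups.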
